A study of Mus musculus with 6 samples.

Results

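The Wnt genes of the early mouse lens were examined in wild type lens placode and in the surface ectoderm of Pax6-/- embryos. They were taken by name: all Wnt, Fzd (Frizzled), Sfrp1 to 5 and Dkk1 to 4 symbols annotated on the array, with further named receptors, antagonists, TCF/LEF factors and targets. Of 19057 genes named on the array, 55 belonged to this set: 19 ligands, 14 receptors, 11 antagonists, 3 TCF/LEF factors and 8 targets and feedback inhibitors. No probe carried the symbol Tcf7, and Sfrp3 is annotated under its other name Frzb and is described with the further pathway genes. The wild type group was lens placode, and the other group, labelled Pax6-/-, was the corresponding surface ectoderm, and the sources used here do not name the Pax6 allele. All embryos were at embryonic day 9.5 on a mixed FVB and 129 background. Both tissues were laser-microdissected out of frozen sections, and RNA of 3 embryos per genotype was pooled and then amplified in 3 samples per genotype, each read on 1 Illumina bead array. The embryos behind a group were pooled, so the p-values measure only the spread between these samples, which may be technical.

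Wnt proteins are secreted ligands that bind Frizzled receptors together with the co-receptors Lrp5 or Lrp6. In the canonical branch this stabilises beta-catenin, which joins TCF/LEF factors on DNA and raises targets such as Axin2, several of which restrain the pathway in return. Secreted antagonists of the Sfrp and Dkk families act outside the cell, the former by binding ligands and the latter mainly at Lrp5 and Lrp6. In mouse, forced beta-catenin activity in the surface ectoderm is known to block lens formation, and Pax6 is the transcription factor that this ectoderm needs to become lens.

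On 5 of the arrays 21062 to 22712 of 45281 probes were detected, at a detection p-value under 0.05, and on Pax6-/- replicate 2 17276 were, so that this array limits the precision for dim probes most. The arrays lay on 2 slides, the first with 1 wild type array (replicate 1) and Pax6-/- replicates 1 and 2, the second with the remaining 3. All signals below are background-corrected, quantile-normalized log2 values, and all differences are Pax6-/- minus wild type on that scale. The brighter Pax6 probe read 11.10, 11.07 and 11.17 in wild type and 10.26, 10.79 and 10.31 in Pax6-/-, and how the probes lie relative to the deleted part was not tested. Of 8 lens placode markers 7 were measured and all 7 were lower without overlap (10.3% of all genes were), Maf among them (-2.59). The 7 include Pax6 itself and Pitx3, which was undetected in Pax6-/- and passed the filter through the wild type arrays alone. The count is therefore a description, partly fixed in advance. The summed linear signal of all 8 surface ectoderm markers was 5908 to 6923 in wild type and 6254 to 8281 in Pax6-/-. Summed mesenchyme markers (8 of 10 measured) read 2043 to 2451 and 1382 to 1554, with 5 lower and 3 higher, Twist1 at -0.01 and Pdgfra at -1.89. Pdgfra was the brightest of them, at 10.17, 10.07 and 9.99 in wild type and 8.11, 7.68 and 8.76 in Pax6-/-. The linear sum therefore follows Pdgfra most and does not describe the list as a whole. Endothelial markers (5 of 8 measured) read 298.6 to 478.7 and 158.8 to 272.1, with Pecam1 not measured and Esam and Cdh5 undetected in Pax6-/-. These 2 passed the filter through the wild type arrays alone, so the lower sum was partly fixed by the filter. Of the 5 measured, Sox17 (-2.12, detected on 1 Pax6-/- array), Esam (at least 2.74-fold lower) and Cdh5 (-0.21) were lower without overlap. Tek (0.79) and Emcn (0.36) were higher with overlap. Optic vesicle markers (6 of 9 measured) read 540.4 to 669 and 531.4 to 1421. Pax2 (2.53) was higher on all Pax6-/- arrays and Lhx2 was at 1.13 with overlap, while the other 4, Rax among them (-0.39), were below 0. Their part in the results below was not tested, and in such tissue samples fewer cells of a type and less RNA per cell cannot be told apart.

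Of the 55 Wnt genes, 39 had a probe detected on at least 3 of the 6 arrays and entered the fit: 9 of 19 ligands, 13 of 14 receptors, 8 of 11 antagonists, all 3 TCF/LEF factors and 6 of 8 targets and feedback inhibitors. Detection on all 6 arrays held for 30 of the 39, or 76.9%, against 70.2% of all genes measured. The 2 genes Wnt7a and Fzd4 passed through the wild type arrays alone. Among the ligands left out, Wnt1, Wnt8a, Wnt8b, Wnt9a, Wnt11 and Wnt16 were detected on no array, Wnt10a and Wnt10b on at most 1, and Wnt2b and Wnt3 on at most 2. The receptor Fzd9, the antagonists Dkk2, Dkk4 and Sfrp4, and the targets Notum, an enzyme that inactivates Wnt proteins, and Sp5, a transcription factor, were detected on no array.

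Among the ligands, Wnt7a was detected in wild type and undetected in Pax6-/-, while Wnt2 and Wnt9b were higher on every Pax6-/- array. None of these passed the test over all probes. Wnt7a, which in mouse is known for patterning the dorsal limb from the ectoderm, read 7.02, 6.38 and 7.02 in wild type and 4.52, 4.54 and 4.56 in Pax6-/-. Before normalization its bead signals were 179, 130 and 168 in wild type, with bead standard errors of at most 7.33, and 52.2, 51.2 and 52.2 in Pax6-/-, where the detection p-value was 0.540 to 0.745. The genotypes were far apart and the Pax6-/- arrays lay at background. Against the lowest detected signal of those arrays Wnt7a was at least 3.39-fold lower (fitted difference -2.26, SE 0.28, limma adjusted p = 0.0951). For this bound each Pax6-/- array was set to its lowest detected signal or, where that was brighter, to the probe's signal, and the mean was taken. The difference was -2.49 within slide 1 and -2.14 within slide 2.

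Wnt2, a ligand known in mouse for lung and placental development, read 8.49, 8.25 and 8.41 in wild type and 9.51, 9.05 and 9.38 in Pax6-/-. The Pax6-/- arrays were all higher, by 1.90-fold (0.93, SE 0.26, limma adjusted p = 0.393), with 0.79 within slide 1 and 1.05 within slide 2. The genotypes overlapped before normalization: the unnormalized bead signal of Pax6-/- replicate 2 was 410, inside the wild type range of 382 to 421, and the other Pax6-/- arrays read 792 and 698. Wnt9b, a ligand that induces kidney tubules in mouse, read 8.55, 8.40 and 7.43 in wild type and 9.30, 10.21 and 8.73 in Pax6-/-. All Pax6-/- arrays were again higher, by 2.44-fold (1.29, SE 0.48, limma adjusted p = 0.498), with 1.20 within slide 1 and 0.82 within slide 2. Its other probe gave 8.21, 8.32 and 7.06 against 9.15, 10.01 and 8.54, a difference of 1.37, so both probes separated the genotypes.

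The remaining 6 ligands overlapped between the genotypes. Wnt7b, the paralog of Wnt7a and the ligand read with the brightest probe, gave 10.57, 10.89 and 10.49 in wild type and 10.78, 11.41 and 9.64 in Pax6-/-. Its difference was -0.04 (95% interval -1.14 to 1.06), with Pax6-/- replicates 2 and 3 on opposite sides of all wild type arrays. Wnt5b had the largest negative difference of the 6 (-1.07, SE 0.53): it read 6.89, 6.23 and 6.57 in wild type and 5.07, 4.74 and 6.68 in Pax6-/-, where replicate 3 lay among the wild type values. Its value was -1.99 within slide 1 and 0.28 within slide 2. Wnt3a (0.68) was detected on 1 wild type and 2 Pax6-/- arrays, and Wnt4 (0.06), Wnt5a (-0.30) and Wnt6 (-0.16) had intervals reaching beyond 1 in both directions. A second Wnt5a probe gave -0.94 (SE 0.69), and the mean of both -0.62. The other kept Wnt6 probes gave 0.45 and -0.09.

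The stretch of 250 bases before the start of transcription is shown for 3 genes whose genotypes did not overlap, picked after their values were seen, and for a pair that hold a TCF/LEF core, the letters CTTTGAT searched on both strands. The sequences are RefSeq promoter windows of build GRCm38.p6, 5′ to 3′ on the strand of the gene, with the core in capitals where it occurs. Wnt7a (chr6:91411354-91411603, minus strand) and Sfrp2 (chr3:83766071-83766320, plus strand) had lower values in Pax6-/-, and Wnt2 (chr6:18030446-18030695, minus strand) higher ones. Wnt5b (chr6:119449387-119449636, minus strand) is the measured gene of the set that held the core, and Sp5 (chr2:70474673-70474922, plus strand) is a target that held it and was not detected.
Wnt7a: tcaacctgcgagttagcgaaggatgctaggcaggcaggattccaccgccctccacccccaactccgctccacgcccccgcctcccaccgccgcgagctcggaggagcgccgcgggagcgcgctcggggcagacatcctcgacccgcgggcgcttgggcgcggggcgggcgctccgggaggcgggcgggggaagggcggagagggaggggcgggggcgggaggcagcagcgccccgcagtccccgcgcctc
Sfrp2: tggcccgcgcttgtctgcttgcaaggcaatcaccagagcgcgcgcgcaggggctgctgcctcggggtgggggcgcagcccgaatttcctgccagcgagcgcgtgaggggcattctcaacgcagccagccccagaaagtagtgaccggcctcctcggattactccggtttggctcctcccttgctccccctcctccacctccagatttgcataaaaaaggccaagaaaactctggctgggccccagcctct
Wnt2: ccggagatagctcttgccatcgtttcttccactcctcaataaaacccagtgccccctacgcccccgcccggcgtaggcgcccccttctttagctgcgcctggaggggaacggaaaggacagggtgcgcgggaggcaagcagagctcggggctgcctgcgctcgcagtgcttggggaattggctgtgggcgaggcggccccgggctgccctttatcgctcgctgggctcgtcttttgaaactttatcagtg
Wnt5b: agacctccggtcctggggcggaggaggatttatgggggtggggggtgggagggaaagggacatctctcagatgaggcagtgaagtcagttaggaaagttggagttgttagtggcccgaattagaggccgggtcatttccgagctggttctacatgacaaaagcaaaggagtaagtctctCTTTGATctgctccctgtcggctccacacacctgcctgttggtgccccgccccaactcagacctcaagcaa
Sp5: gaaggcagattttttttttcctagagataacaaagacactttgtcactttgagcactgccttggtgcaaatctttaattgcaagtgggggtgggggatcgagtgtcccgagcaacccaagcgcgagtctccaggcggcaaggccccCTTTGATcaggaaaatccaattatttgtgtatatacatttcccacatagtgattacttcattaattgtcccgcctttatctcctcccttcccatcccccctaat
In Wnt5b the core began 71 bases and in Sp5 104 bases before the start. Windows of 300 bases, 250 before to 50 after the start, were found for 37 of the 55 genes, and 3 of these (8.11%) held the core: Sp5, Wnt5b and Wnt11. Of all 27025 genes with a window 4.29% held it. The Wnt7a window had 77.6% G and C, against 46% in Sp5. A match of these letters is a description and not a binding site.

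**Figure D1:**
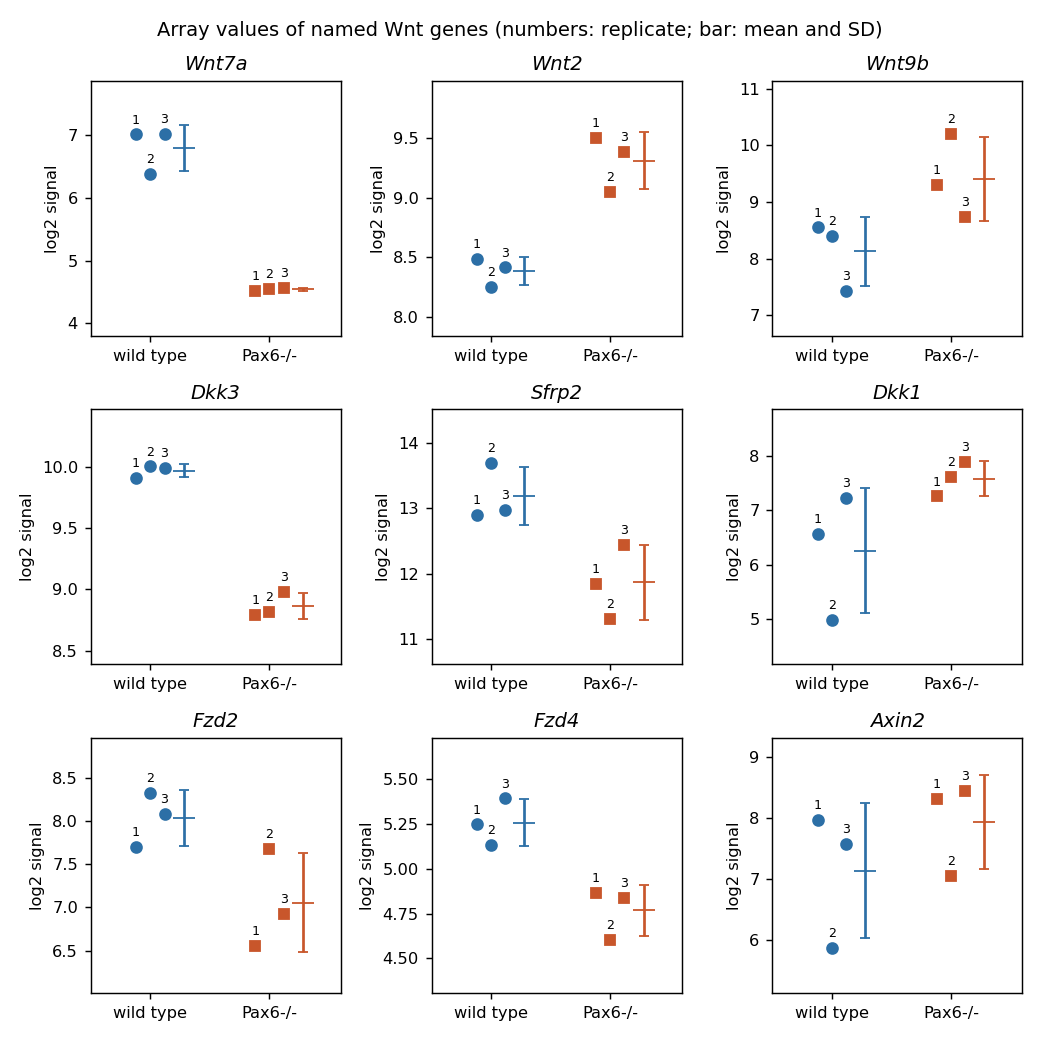
Log2 signal (vertical axis, its range set per panel) of 9 Wnt genes on the 3 wild type arrays (blue circles) and the 3 Pax6-/- arrays (orange squares), with the replicate number above each point and the mean and SD (n = 3) as a bar. The Wnt7a points of Pax6-/- lie together at 4.52 to 4.56, and in Axin2 the genotypes overlap.

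Among the secreted antagonists, Dkk3 and Sfrp2 were lower on all Pax6-/- arrays and Dkk1 was higher, none past the threshold over all probes. Dkk3, a divergent Dkk protein whose effect on Wnt signalling varies between cell types, read 9.91, 10.01 and 10.00 in wild type and 8.79, 8.81 and 8.98 in Pax6-/-. Replicates were tight, with SDs of 0.05 and 0.10, and the Pax6-/- arrays were 2.16-fold lower (-1.11, SE 0.24, limma adjusted p = 0.266). The difference was -1.11 within slide 1 and -1.02 within slide 2. A second Dkk3 probe gave 9.64, 10.23 and 9.97 against 7.07, 6.07 and 8.49, a difference of -2.74 (SE 0.60), so the probes had the same direction and different sizes. The third was detected on 1 array of each genotype and left out.

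Sfrp2, which binds Wnt ligands outside the cell, read 12.90, 13.69 and 12.97 in wild type and 11.84, 11.31 and 12.44 in Pax6-/-. The groups did not overlap, and Pax6-/- was lower by a fitted log2 difference of -1.32 (SE 0.39, limma adjusted p = 0.410). Within slide 1 the difference was -1.32 and within slide 2 -0.89. Dkk1, an inhibitor that binds Lrp5 and Lrp6 and is needed for head formation in mouse, read 6.57, 4.98 and 7.23 in wild type and 7.25, 7.61 and 7.89 in Pax6-/-. The gap between wild type replicate 3 and Pax6-/- replicate 1 was small, and without wild type replicate 2 the difference of 1.33 (SE 0.57, limma adjusted p = 0.550) was 0.69. Within slide 1 it was 0.87 and within slide 2 1.78. The unnormalized Dkk1 signal of Pax6-/- replicate 2, 172, also lay inside the wild type range of 69.2 to 188.

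The other 5 antagonists overlapped between the genotypes. Kremen1 and Kremen2, receptors that work with Dkk1, were at -0.96 and 0.54, Kremen1 being detected on 3 wild type arrays and 1 Pax6-/- array. Sfrp1 was at -0.49, and its second probe at -0.54. Sfrp5 gave 6.50, 8.88 and 6.95 in wild type and 7.52, 9.78 and 7.52 in Pax6-/-, with replicate 2 high in both genotypes, and a difference of 0.83 (SE 0.83). The Wnt-binding inhibitor Wif1 was near background, at 0.07. Antagonists as a list had 4 differences above and 4 below 0, with a median of -0.21 against -0.07 over all genes.

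Among the receptors, Fzd2 and Fzd4 were lower on every Pax6-/- array and none was higher without overlap. Fzd2 read 7.70, 8.33 and 8.08 in wild type and 6.55, 7.68 and 6.92 in Pax6-/-. Wild type replicate 1 and Pax6-/- replicate 2 lay nearly level, and the fitted difference was -0.98 (SE 0.37, limma adjusted p = 0.502), with -0.58 within slide 1 and -1.28 within slide 2. Fzd4, the Frizzled that also serves norrin in retinal vessels, read 5.24, 5.13 and 5.39 against 4.86, 4.60 and 4.83. It was dim in wild type and undetected in Pax6-/-, which gives at least 1.16-fold lower (fitted difference -0.49, SE 0.25, limma adjusted p = 0.594). The detection p-values in Pax6-/- were 0.0545, 0.503 and 0.0566, so replicates 1 and 3 narrowly missed the cut. On replicate 2 the lowest detected signal (5.3914) lay above the highest wild type value (5.3899), so a wild type level would be undetected there too.

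Fzd7, the receptor with the brightest probe, read 10.00, 9.06 and 9.59 in wild type and 9.67, 8.52 and 9.46 in Pax6-/-, with replicate 2 lowest in both genotypes (-0.34, 95% interval -1.31 to 0.63). The Frizzled genes Fzd1, Fzd3, Fzd5, Fzd6, Fzd8 and Fzd10 lay between -0.37 and 0.61 and overlapped. The co-receptors Lrp5 and Lrp6 were at -0.10 and -0.29, and Ror1 and Ror2, receptors for Wnt5a, at -0.09 and 0.12. In Lrp6 the Pax6-/- arrays read 7.84, 5.72 and 8.32 around wild type values of 7.34 to 7.93, and the difference without replicate 2 was 0.50. The other kept Lrp6 probe was also below 0 (-0.32), with replicate 2 as its highest Pax6-/- value at 5.56. Over the 13 receptors 9 differences were below and 4 above 0, with a median of -0.23.

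Targets and nuclear factors did not separate the genotypes. Axin2, the scaffold of the beta-catenin destruction complex and a widely used readout of canonical signalling, read 7.97, 5.88 and 7.57 in wild type and 8.31, 7.05 and 8.45 in Pax6-/-. Replicate 2 was the lowest array in each genotype, and the difference of 0.80 (SE 0.64, limma adjusted p = 0.709, 95% interval -0.71 to 2.30) was 0.17 without wild type replicate 2 and 1.24 without Pax6-/- replicate 2. Within slide 1 it was -0.29 and within slide 2 1.72. Znrf3 and Rnf43, ligases that remove Frizzled from the cell surface, were at 0.67 and 0.06. Apcdd1, a membrane inhibitor, was at -0.12, and Nkd1 and Nkd2, which bind Dishevelled, at 0.15 and 0.0047, all 5 with overlap of the genotypes.

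Lef1, a TCF/LEF factor that is itself a target, read 7.70, 8.15 and 7.70 in wild type and 7.85, 8.04 and 8.08 in Pax6-/-. Its interval of -0.49 to 0.76 was among the narrowest of the set, while a second kept Lef1 probe gave 0.77 (95% interval -1.32 to 2.86). Tcf7l1, mainly a repressor, was at -0.01 (95% interval -0.76 to 0.75). Tcf7l2, the factor with the brightest probe, read 9.14, 8.92 and 8.61 in wild type and 9.12, 6.45 and 9.19 in Pax6-/-. With this probe only replicate 2 of the Pax6-/- arrays was low, and without it the difference of -0.64 (SE 0.73) became 0.27. The other kept Tcf7l2 probes gave -0.51, -0.31, 0.04 and 0.30, so the probes differed in sign. In the probe at 0.30 the Pax6-/- arrays read 5.73, 5.70 and 5.21, and replicate 2 was not the lowest.

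**Figure D2:**
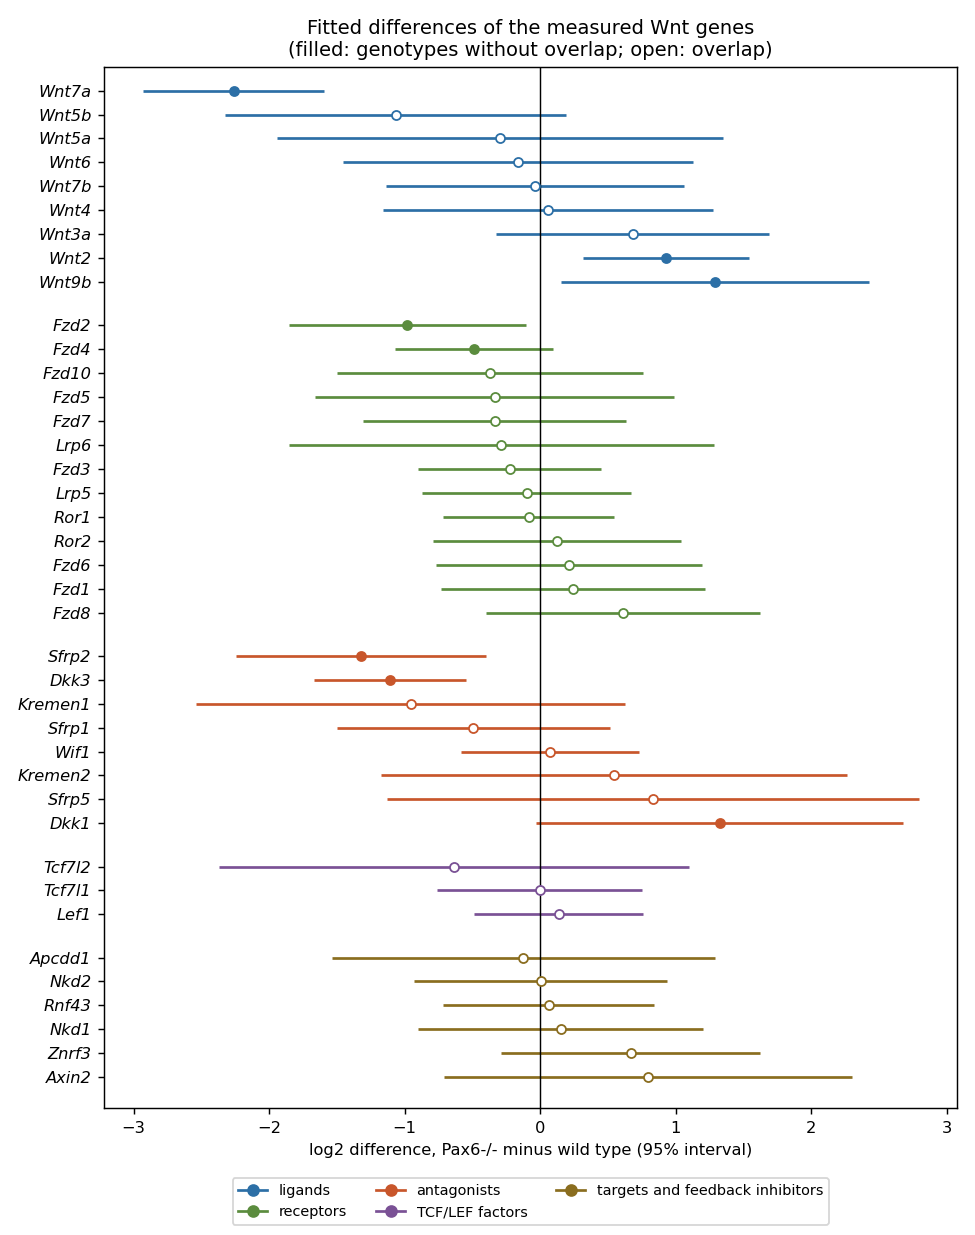
Fitted log2 differences, Pax6-/- minus wild type (horizontal axis), of the 39 measured Wnt genes with 95% intervals, sorted within each role. Filled points mark the 8 genes whose genotypes did not overlap (17.5% of all genes did not). The Wnt7a interval of -2.93 to -1.59 lies farthest from 0. Wnt7a was undetected in Pax6-/-, so this interval is set against background and does not measure the size of the difference.

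Counted over the set, limma called 0 of the 39 genes at an adjusted p under 0.05, where 0.00912% of all genes, 1 of 10967, were called. At an unadjusted p under 0.05, 4 were lower (Wnt7a, Dkk3, Sfrp2 and Fzd2) and 2 higher (Wnt2 and Wnt9b), against 5.87% and 3.22% of all genes, or 9.09% in either direction. Without overlap between genotypes there were 5 lower (12.8% of 39) and 3 higher genes (7.69%), where all genes gave 10.3% lower and 7.21% higher, so the shares were near the background. Of the 5 lower genes, Wnt7a and Fzd4 were kept through their wild type arrays alone, and with detection required on all 6 arrays 3 of 30 were lower (9.7% of all genes). An exact two-sided test of 3 against 3 arrays on 1 gene cannot go below 0.1. The median difference was -0.04 for the 39 genes and -0.07 for all genes. Without Pax6-/- replicate 3 there were 9 lower genes without overlap (all genes 19.4%), and without wild type replicate 2 or Pax6-/- replicate 2 there were 8 and 7 higher ones (all genes 12.1% and 12.3%). Without wild type replicates 1, 2 and 3 in turn 5, 7 and 5 were lower (all genes 14.2%, 16.2% and 13.9%), and without replicates 1 and 3 there were 3 higher each time (9.96% and 9.86%). Without Pax6-/- replicates 1 and 2 in turn 7 and 6 were lower (17.1% and 16.2%), and without replicates 1 and 3 there were 4 and 3 higher (13% and 12.8%). With array weights, or with all kept probes of a gene averaged, Wnt7a was called (-2.39, limma adjusted p = 0.0432, and -2.26, limma adjusted p = 0.0407). Wnt7a has 1 kept probe, so averaging left its values as they were. That setting fitted and adjusted over genes and not over the 21971 kept probes.

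Like all genes measured, the Wnt genes varied more between the Pax6-/- arrays than between the wild type arrays. The SD was larger in Pax6-/- than in wild type for 25 of the 39 genes, with medians of 0.57 and 0.33, where all genes gave 0.50 and 0.31. Pax6-/- replicate 2 held the lowest or the highest of the 6 values in 59% of the Wnt genes and 60.6% of all genes. Bead counts of 24 to 70 per value gave bead standard errors with a median of 3.79% of the signal, the highest being 7.30%. The 2 slides gave differences of opposite sign in 22 of the 39 genes (56.4%), against 42.9% of all genes. More than 1 probe was kept for 13 of the genes, and in 3 of these the probes differed in sign (23.1%, against 51.3% of such genes on the array). For 8 genes the 95% interval of the probe used lay within 1 on either side of 0, or 20.5% against 27.8% of all genes. These were Lef1, Tcf7l1, Fzd3, Lrp5, Ror1, Wif1, Nkd2 and Rnf43. Other kept probes reached beyond 1 for Lef1 (-1.32 to 2.86) and for Lrp5 (-1.32 to 1.92 and -0.72 to 1.39). Those of Fzd3 reached below -1 (-1.22 to 0.82 and -1.18 to 0.53), and that of Tcf7l1 did not (-0.83 to 0.60). Ror1, Wif1 and Rnf43 are dim, and the offset of 16 added to the signals compresses differences of dim probes.

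**Figure D3:**
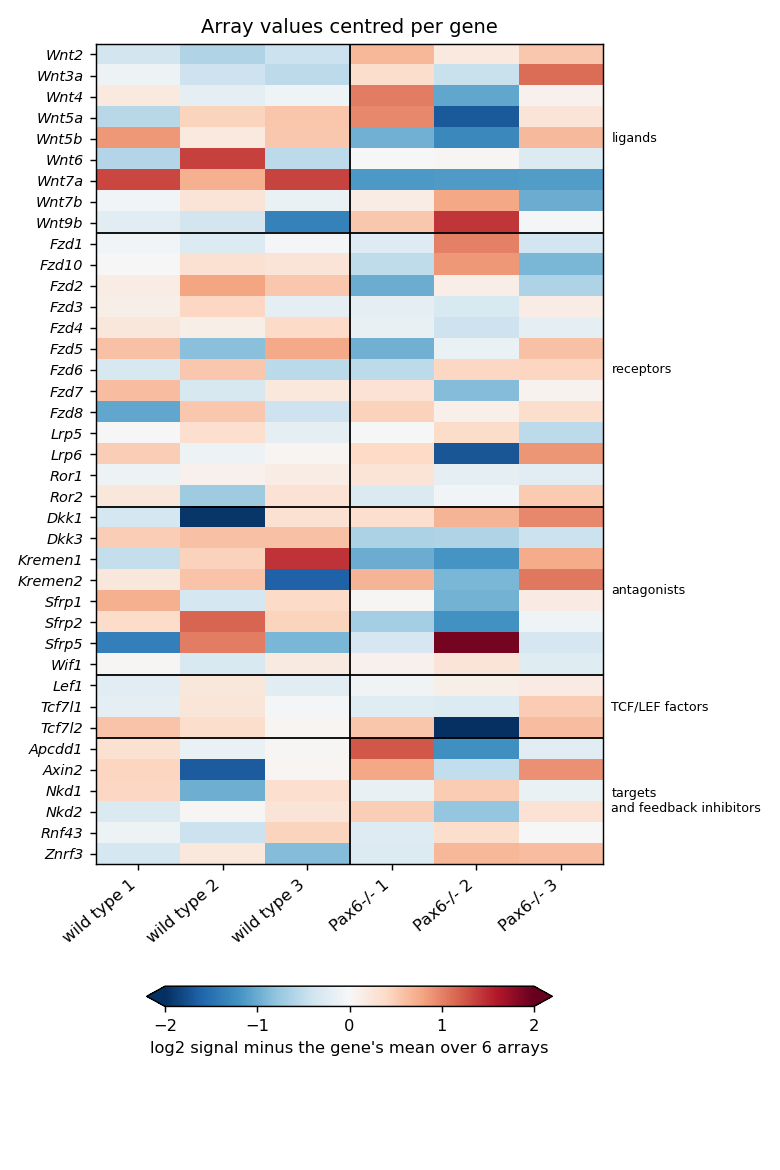
Log2 signal minus the gene's mean over the 6 arrays (colour, blue low and red high, clipped at 2) for the 39 measured Wnt genes (rows, by role) on each array (columns). Wnt7a is red on the wild type and blue on the Pax6-/- arrays, and Tcf7l2 and Lrp6 are lowest on Pax6-/- replicate 2.

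Leaving out 1 array at a time showed how far each difference depended on a single array; where the genotypes did not overlap its sign could not turn. Dkk3 lay between -1.17 and -1.07 with the probe used, and Wnt2 between 0.83 and 1.06. The second kept Dkk3 probe, at -2.74, and the mean of both, at -1.92, lay outside that range. The values of Wnt7a (-2.48 to -2.16) and Fzd4 (-0.55 to -0.41) are set against Pax6-/- arrays at background and give no measure of stability. Sfrp2 ranged from -1.61 to -1.04, Wnt9b from 0.89 to 1.63 and Fzd2 from -1.30 to -0.73. Dkk1 (0.69 to 1.81) and Axin2 (0.17 to 1.24) had the widest ranges of the 9 genes.

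**Figure D4:**
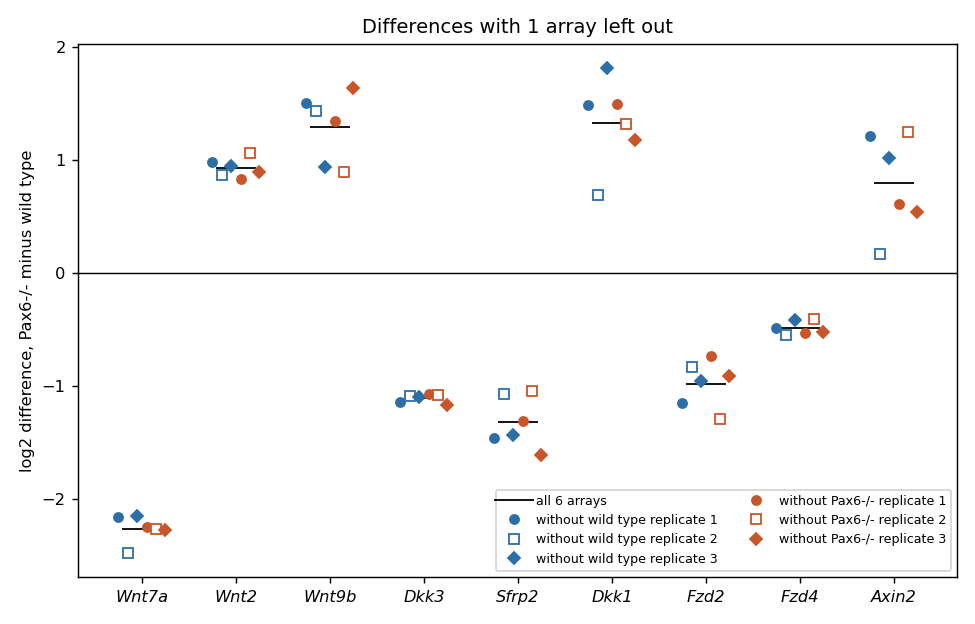
Log2 difference, Pax6-/- minus wild type (vertical axis), of 9 Wnt genes with all 6 arrays (black dash) and with 1 array left out (blue, a wild type array left out; orange, a Pax6-/- array left out). Axin2, the gene of the 9 whose genotypes overlap, comes closest to 0 at 0.17 without wild type replicate 2.

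Beyond the named set, 46 of 55 further genes of the pathway were measured, 28 with negative and 18 with positive differences, and none was called at an adjusted p under 0.05. Of all genes 6089 of 10967 had negative differences. At an unadjusted p under 0.05 there was 1 in each direction of the 46, against 5.87% lower and 3.22% higher of all genes. Without overlap 3 of the 46 were lower and 2 higher, where all genes gave 10.3% and 7.21%, so these shares did not exceed the background. Frzb, a secreted antagonist also called Sfrp3, read 7.77, 7.34 and 8.15 in wild type and 7.94, 4.71 and 7.48 in Pax6-/-, where replicate 2 alone was low (-1.05, SE 0.82). Gpc4, a glypican whose heparan sulfate chains bind Wnt proteins, read 7.97, 7.70 and 7.67 in wild type and 8.71, 8.48 and 8.58 in Pax6-/- (0.81, SE 0.25, limma adjusted p = 0.429). Its relative Gpc3 was also higher on all Pax6-/- arrays (0.51). Tnks2, a tankyrase that promotes Axin turnover, was lower on all of them (-0.62, SE 0.25). So were the Gsk3-binding protein Frat2 (-0.60) and Ptk7 (-0.37), listed with the other receptors and modulators. The casein kinase Csnk1e (-1.30), the co-receptor relative Lrp4 (-1.02), the R-spondin Rspo2 (-0.94) and its receptor Lgr4 (-0.71) had larger or similar negative differences with overlap. Beta-catenin itself, Ctnnb1, read 13.09, 12.79 and 13.15 in wild type and 12.65, 12.84 and 12.63 in Pax6-/- (-0.31, SE 0.25). The general growth targets Ccnd1 (-0.05) and Myc (0.26) overlapped, and so did Wls (-0.15), which carries Wnt proteins to the cell surface.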

How the data were processed

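Gene expression was measured on 6 Illumina bead arrays. The deposited probe table gave, per the file headers, an average signal per probe and array, here read as an intensity on a linear scale without background subtraction, with a detection p-value. Other columns that the authors deposited beside it held bead numbers and bead standard errors. A second table held the authors' processed intensity values, some below 0. The submitters' processing notes name GenomeStudio; the sources used here do not give the normalization.

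Signals were processed with limma's neqc (limma 3.58.1, R 4.3.3; negative controls inferred from the detection p-values, offset 16, quantile normalization, log2). Probes with a detection p under 0.05 on at least 3 arrays were kept (21971 of 45281). Genotype was fitted with lmFit and eBayes, adjusted by Benjamini-Hochberg over all kept probes. The fit was tested on simulated data. The kept probe of highest mean stood for each gene, and signals of different probes do not rank genes. Probe symbols came from the platform annotation, checked through Entrez ids. Named genes were Pax6, Wnt7a, Dkk3, Sfrp2 and Axin2, and Wnt genes without overlap or with p under 0.05. The brightest probe per role and the 8 pathway genes of smallest p were also named. Other members are listed with brief values, and Ctnnb1, Ccnd1, Myc, Wls and Ptk7 were added after their values were seen. The members and lists were chosen with earlier results of these data known. Replicate numbers were not used as pairs in the fit (correlations of same-numbered deviations 0.06, 0.05 and 0.02, of the others -0.06 to 0.03). Other settings tried were the correction of background, the scaling, the authors' values, filters, blocks, weights, the prior, the probe of a gene and each array left out. Figures were drawn with matplotlib 3.10.9.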

Additional observations from a re-analysis of the deposited data

Results flagged for a closer look

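Wnt3, a ligand of canonical signalling, has 1 probe on the array that was below the detection filter and entered no comparison. It was detected on 2 Pax6-/- arrays and on no wild type array. In Pax6-/- its log2 signal was 5.54, 4.47 and 5.03, with detection p-values of 0.0107, 0.926 and 0.0256. In wild type it read 4.55, 4.50 and 4.60. It stands out as a signal in data the comparisons did not use, above all wild type arrays on Pax6-/- replicates 1 and 3 and below them on replicate 2. The difference was not tested.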

How the results depend on the processing

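The number of arrays, the dim Pax6-/- replicate 2 and the pooled RNA limit these results. The number of genes called, 1, became 15 with the authors' values above a floor of 0.219, 0 with detection on all 6 arrays, 4 at a detection p under 0.01, 5 with no filter, 0 with slide as a block, 12 with array weights, 3 with a trended robust prior and 21 with probes averaged. Leaving out 1 array gave 0 to 1. Wnt7a was the 1 Wnt gene called, with the authors' values at that floor (-8.82, limma adjusted p = 0.00467), with array weights and with probes averaged. These were 3 of the 20 other settings that kept Wnt7a. Averaging did not change the values of Wnt7a, which has 1 kept probe, but moved the fit and adjustment from probes to genes. Because Wnt7a was undetected in Pax6-/-, the -8.82 and its p-value depend on the floor and do not measure the size of the difference. With neqc at an offset of 50 the difference was -1.35. Detection on all 6 arrays left 3 lower Wnt genes without overlap, since that filter removed Wnt7a and Fzd4, which were undetected in Pax6-/-. Leaving out 1 array gave 5 to 9 lower and 3 to 8 higher ones, with a median of -0.13 to 0.01.

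With the replicate number as a block, 0 genes were called and Wnt7a had a limma adjusted p of 0.518. The block also takes residual degrees of freedom, so this cannot decide whether the numbers pair the arrays. Deviations of same-numbered arrays correlated at 0.0559, 0.0451 and 0.0185, and those of differently numbered arrays at -0.0636 to 0.0267. Wild type replicate 3 correlated best with Pax6-/- replicate 1 (0.0267).

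Signs turned in genes whose genotypes overlapped. With arrays scaled to one median, values were -0.045 for Wif1, -0.14 for Wnt4, -0.087 for Rnf43 and -0.0070 for Lef1. Nkd2 was -0.016 with no background correction and -0.49 with the authors' values at the lower floor. With another background correction (normexp on the signals, offset 50) it was -0.012, and with neqc at an offset of 50 it stayed above 0 (0.025). Wnt6 was 0.037 with the authors' values at both floors, and Ror1 0.026 at a floor of 16, an alternative chosen after seeing the data. With slide as a block Wif1 was -0.011, Nkd1 -0.024 and Tcf7l1 0.17. With array weights values were -0.092 for Wif1, 0.24 for Wnt5a, 0.19 for Wnt6, -0.089 for Fzd1, 0.16 for Lrp6, -0.020 for Ror2, 0.16 for Apcdd1, -0.26 for Nkd1, -0.17 for Rnf43 and 0.17 for Tcf7l1. With probes averaged Wnt6 was 0.067 and Lrp5 0.18. The cause was not tested.

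With 1 array left out, 20 of these differences turned sign. The ranges were -0.13 to 1.14 for Kremen2, -0.064 to 0.21 for Wif1, -0.44 to 0.59 for Wnt4, -0.86 to 0.47 for Wnt5a, -0.50 to 0.48 for Wnt6, -0.44 to 0.44 for Wnt7b and -0.20 to 0.49 for Fzd1. They were -0.84 to 0.059 for Fzd5, -0.0015 to 0.54 for Fzd6, -0.58 to 0.012 for Fzd7, -0.31 to 0.14 for Lrp5, -0.80 to 0.50 for Lrp6, -0.24 to 0.0012 for Ror1 and -0.20 to 0.30 for Ror2. For the rest they were -0.77 to 0.46 for Apcdd1, -0.30 to 0.39 for Nkd1, -0.24 to 0.39 for Nkd2, -0.14 to 0.30 for Rnf43, -0.26 to 0.13 for Tcf7l1 and -1.11 to 0.27 for Tcf7l2.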
